A study of Rattus norvegicus with 6 samples.

Results

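The genes described are those of transforming growth factor beta (TGF-beta), bone morphogenetic protein (BMP) and activin signalling, measured in rat lumbar spinal cord. Members were taken by name, as every gene whose symbol on the array platform begins with Bmp, Tgfb, Gdf, Inhb, Acvr or Smad followed by the digit or letter that marks the family. They numbered 48 of the 20530 genes measured. The name pattern also takes in 3 genes that encode no ligand, receptor or SMAD (Bmp2k, Tgfb1i1 and Tgfbrap1), the protease gene Bmp1 and 2 pseudogenes. Where several array rows named a gene, the brightest over all arrays was used. Family genes that no row named alone, among them some SMADs and receptors, are not analysed here.

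The tissue was cord segments L2 to L6 of Sprague-Dawley rats, hybridised to 6 Affymetrix arrays, each taken here as 1 rat. The labels do not say whether an array held RNA of a single animal, and the p-values measure the spread between these arrays. The 3 lidocaine rats were given 20 µL of a 10% solution of lidocaine, a local anaesthetic that blocks sodium channels, into the fluid space around the cord, and their cords were taken on day 4. The 3 control rats were left untreated and were not injected, so the drug and the injection cannot be told apart. Behaviour was tested in all rats up to day 4. The labels used here give the strain and no age. The tissue is bulk cord, in which fewer cells of a type and less RNA per cell cannot be told apart.

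Ligands of this family are secreted dimers. They bind a pair of type I and type II receptor kinases on the cell surface, and the type I kinase then phosphorylates receptor-regulated SMAD proteins, which enter the nucleus with a common partner and switch genes on or off. SMAD3 is among those that carry TGF-beta and activin signals, SMAD5 and SMAD9 are among those that carry BMP signals, and inhibitory SMADs such as SMAD6 hold the pathway back. TGF-beta is stored in the matrix in a latent form that must be activated. In the injured cord of rodents TGF-beta is known for its effects on microglia, astrocytes and scar matrix, and BMPs for theirs on astrocytes and oligodendrocyte precursors.

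Values are log2 units after RMA, which corrects background and gives all arrays the same distribution, so each change is read against the bulk of genes on the array. A change is the mean of the lidocaine rats minus the mean of the control rats, tested with limma over all genes, and a gene is called where the Benjamini-Hochberg adjusted p lies under 0.05. Correlations over the genes lay between 0.993 and 0.997 for rats of the same group and between 0.978 and 0.985 for rats of different groups. Rows of negative control probes had medians of 2.71 to 2.81 on the lidocaine arrays and 2.65 to 2.75 on the control arrays. Their 95th percentiles were 5.99 to 6.06 on the lidocaine arrays and 5.79 to 5.87 on the control arrays. Averaged over the 6 arrays, 10 members lay above the mean 95th percentile of 5.94, 32 lay between it and the mean median of 2.74, and 6 lay below that median. Those 6 were Bmp10, Bmp15, Gdf3, Gdf9, Inhbc and Smad2-ps1, whose values may be background.

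Of the 48 members, 6 rose, 2 fell and 40 were not called. The share called, 16.7%, compares with 23.7% of all genes. The 6 that rose are 12.5% of the members, against 9.70% of all genes, and the 2 that fell are 4.17%, against 14.0%. These differences in share were not tested. Of the 8 called members, Tgfb3 and Acvr1c had both group means below the 95th percentile of the negative controls, Smad9 the lidocaine mean alone, and Tgfb1 and Bmp7 the control mean alone, so their folds rest on at least 1 level not clearly above background. The median change of the members was 0.01, against -0.01 over all genes. In 15 members the groups did not overlap, 10 with the lidocaine rats higher and 5 with them lower, against 40.5% of all genes. After centring the arrays on their medians, 6 members were higher and 4 lower, and over all genes the rises made up 30.1% of the calls in place of 40.9%. Without control rat 2, 5 members were called, and without lidocaine rat 3, 11, of which 5 were lower. Over all 20530 genes 4867 were called, 5847 after centring, 3893 without lidocaine rat 3, 2754 without control rat 2 and 2906 without control rat 3.

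**Figure D1:**
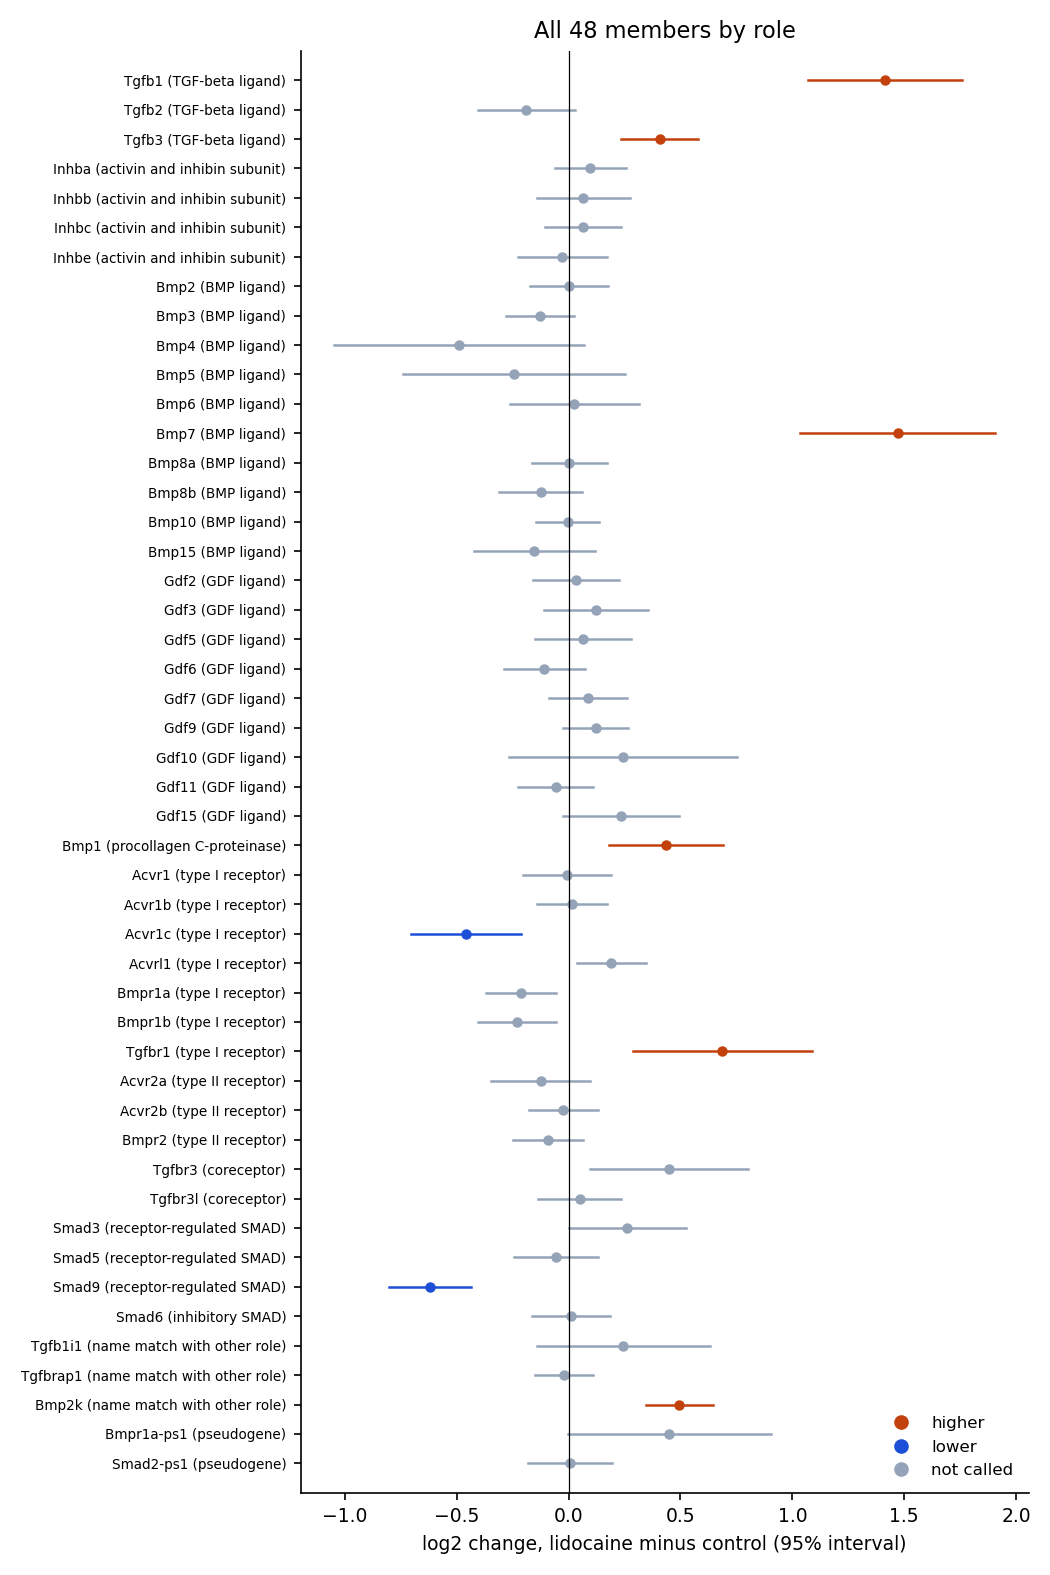
Change of each of the 48 members on the log2 scale (x axis, mean of 3 lidocaine rats minus mean of 3 control rats; bars, 95% confidence intervals of the limma fit), ordered by role down the page. Tgfb1 and Bmp7 lie furthest to the right at 1.41 and 1.47, and Smad9 furthest to the left at -0.62.

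Of the 3 TGF-beta ligand genes, Tgfb1 and Tgfb3 were called and Tgfb2 was not. Tgfb1, the isoform made in the nervous system largely by microglia and macrophages, read 6.49, 6.55 and 7.01 in the lidocaine rats and 5.07, 5.36 and 5.38 in the control rats. Every lidocaine value lay above every control value, by more than the spread within either group, and lidocaine rat 3 was the highest. That is a 2.66-fold rise of Tgfb1, or a log2 change of 1.41 ± 0.15 (SE, n = 3 per group; limma, adjusted p = 0.000933). Tgfb3 read 5.56, 5.56 and 5.59 in the lidocaine rats and 5.21, 5.03 and 5.25 in the control rats. The 3 lidocaine values of Tgfb3 were nearly equal, and the groups did not overlap. It rose 1.33-fold (log2 change 0.41 ± 0.07, SE, adjusted p = 0.00803).

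Tgfb2, the isoform linked with neurons and astrocytes, read 5.46, 5.51 and 5.77 in the lidocaine rats and 5.84, 5.68 and 5.78 in the control rats. The groups overlapped through lidocaine rat 3, and Tgfb2 was not called (log2 change -0.19, 95% interval -0.41 to 0.03, adjusted p = 0.196). Without lidocaine rat 3 its change was -0.28 and it was called (adjusted p = 0.0397). The change of Tgfb1 exceeded that of Tgfb2 by 1.60 and that of Tgfb3 by 1.01 on the log2 scale. Of 4 such pairs of members compared by a two-sided exact permutation test, each gave p = 0.1, also after adjustment over the 4. This is the smallest p that 3 rats against 3 can give, so no pair could fall under 0.05 and the test decides nothing on any of the 4. Bmp6 and Smad5, in the other pairs, were also chosen after their values were seen.

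**Figure D2:**
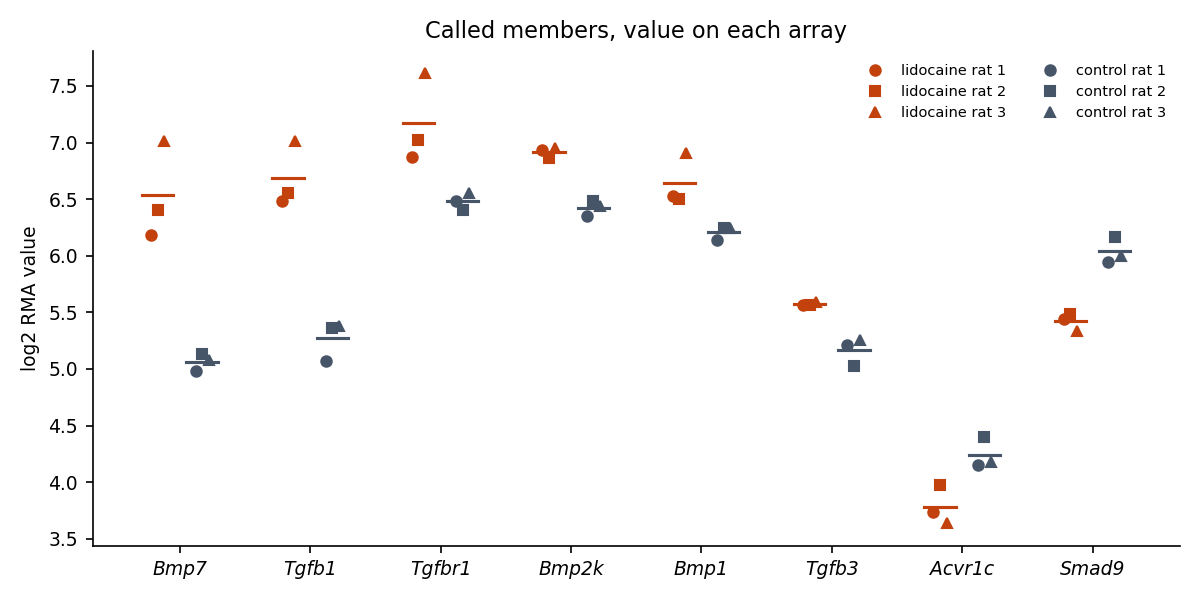
Log2 RMA value (y axis) of the 8 called members on each array, with the 3 lidocaine rats left of the 3 control rats for each gene and bars at the group means. The groups do not overlap in any of the 8 genes, and lidocaine rat 3 is the highest lidocaine rat in each of the 6 genes that rose.

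Activin and inhibin beta subunits, which pair to form activins or join the alpha subunit to form inhibins, showed no call in 4 genes. Inhba, the subunit of activin A, read 3.07, 3.00 and 2.90 in the lidocaine rats and 2.87, 2.94 and 2.86 in the control rats (log2 change 0.10, 95% interval -0.06 to 0.26, adjusted p = 0.364). Inhbb, the subunit of activin B, read 4.67, 4.83 and 4.59 in the lidocaine rats and 4.77, 4.54 and 4.58 in the control rats (log2 change 0.07, interval -0.14 to 0.27, adjusted p = 0.663). The groups overlapped in both. Inhba lay above 55.3% of the negative controls in the lidocaine rats and 55.1% in the control rats, so its level is near background. Inhbc and Inhbe, known mainly from liver, were dimmer. Inhbc lay above 33.7% of the negative controls in the lidocaine rats and 33.8% in the control rats, and Inhbe above 50.2% and 52.5%. Inhbc read 1.98, 2.16 and 2.18 in the lidocaine rats and 2.02, 2.05 and 2.07 in the control rats. Inhbe read 2.63, 2.86 and 2.82 in the lidocaine rats and 2.88, 2.84 and 2.68 in the control rats. Their changes were 0.06 and -0.03 (adjusted p = 0.593 and 0.86).

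Of 10 BMP ligand genes, Bmp7 alone was called. Bmp7, a ligand known in the cord from the meninges and from its promotion of astrocyte differentiation, read 6.18, 6.41 and 7.02 in the lidocaine rats and 4.98, 5.13 and 5.08 in the control rats. The lidocaine rats were more spread than the control rats, with SDs of 0.43 and 0.08, and rat 3 was again the highest. The rise of Bmp7, 2.77-fold, was a change of 1.47 ± 0.19 on the log2 scale (SE, n = 3 per group; limma, adjusted p = 0.00225). Its estimate was above that of Tgfb1 with all rats, but without lidocaine rat 3 the changes were 1.23 for Bmp7 and 1.25 for Tgfb1, so the 2 have no fixed order.

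The other 9 BMP ligands changed by -0.49 to 0.03. Bmp4, a ligand that holds back oligodendrocyte maturation, read 3.97, 3.83 and 4.76 in the lidocaine rats and 4.89, 4.77 and 4.38 in the control rats. Lidocaine rats 1 and 2 lay below every control and rat 3 lay among them, so the groups overlapped and Bmp4 was not called (log2 change -0.49, 95% interval -1.05 to 0.07, adjusted p = 0.194). Without lidocaine rat 3 its change was -0.78 and it was called (adjusted p = 0.0129). Bmp6, a ligand known for its part in iron regulation, read 6.21, 6.38 and 6.73 in the lidocaine rats and 6.37, 6.49 and 6.38 in the control rats (log2 change 0.03, interval -0.26 to 0.31, adjusted p = 0.909). The change of Bmp7 exceeded that of Bmp6 by 1.44 (exact permutation p = 0.1, the smallest possible, which decides nothing). Bmp2, Bmp3, Bmp5, Bmp8a, Bmp8b, Bmp10 and Bmp15 completed the group, none of them called.

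None of the 9 growth differentiation factor genes was called, with changes of -0.11 to 0.24 and adjusted p of 0.178 to 0.815. Gdf15, a cytokine induced by cell stress in many tissues, read 3.41, 3.69 and 3.61 in the lidocaine rats and 3.49, 3.39 and 3.13 in the control rats, and its groups overlapped. Gdf10, a factor linked with axon sprouting in the rodent brain, read 3.61, 3.99 and 4.58 in the lidocaine rats and 3.73, 4.02 and 3.70 in the control rats, with lidocaine rat 3 alone above all controls. Gdf11, a relative of myostatin that patterns the trunk and cord, read 4.90, 5.12 and 4.99 in the lidocaine rats and 5.04, 5.10 and 5.04 in the control rats. Gdf2, Gdf3, Gdf5, Gdf6, Gdf7 and Gdf9 were the others.

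Bmp1 carries a BMP name but encodes a protease that trims procollagens and releases BMPs and TGF-beta family proteins from their inhibitors. It read 6.53, 6.5 and 6.9 in the lidocaine rats and 6.14, 6.24 and 6.25 in the control rats, with no overlap. The 1.35-fold rise of Bmp1 (log2 change 0.44 ± 0.11, SE, adjusted p = 0.0248) was not called when any of the control rats was left out (adjusted p 0.0667 to 0.0724), nor with all array rows tested (0.055).

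Among 7 type I receptor genes, 1 rose and 1 fell. Tgfbr1, the kinase through which TGF-beta signals, read 6.87, 7.02 and 7.61 in the lidocaine rats and 6.48, 6.41 and 6.56 in the control rats. Lidocaine rat 3 stood well above the other lidocaine rats, and the groups did not overlap. The rise of Tgfbr1 was 1.61-fold, a log2 change of 0.69 ± 0.17 (SE, n = 3 per group; limma, adjusted p = 0.0247). A second row that names Tgfbr1 gave a change of 0.79. With any of the control rats left out, Tgfbr1 was no longer called (adjusted p 0.0615 to 0.0885). Without lidocaine rat 3 the change was 0.47.

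Acvr1c, a type I receptor for activin B, Nodal and some growth differentiation factors, read 3.74, 3.97 and 3.64 in the lidocaine rats and 4.15, 4.40 and 4.18 in the control rats. The groups did not overlap, and the level of Acvr1c was lower by 1.37-fold, a log2 change of -0.46 ± 0.11 (SE, adjusted p = 0.0179). Leaving out control rat 2 ended this call (adjusted p = 0.0644). Of the BMP type I receptors, Bmpr1a and Bmpr1b lay a little lower in every lidocaine rat, while Acvr1 did not. Bmpr1a read 6.75, 6.77 and 6.89 in the lidocaine rats and 7.03, 7.06 and 6.95 in the control rats. Bmpr1b read 5.38, 5.28 and 5.17 in the lidocaine rats and 5.55, 5.53 and 5.44 in the control rats. Neither was called (log2 changes -0.21 and -0.23, adjusted p = 0.0546 and 0.0601), but both were called after centring the arrays (adjusted p = 0.0212 and 0.026). Bmpr1a was also called without lidocaine rat 3 (adjusted p = 0.0434) and with dim genes left out (adjusted p = 0.0284), and Bmpr1b without lidocaine rat 1 (adjusted p = 0.0428).

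Acvrl1, the type I receptor of endothelial cells, read 5.0, 4.92 and 5.1 in the lidocaine rats and 4.79, 4.84 and 4.82 in the control rats, and was not called although the groups did not overlap (log2 change 0.19, 95% interval 0.04 to 0.34, adjusted p = 0.0739). Acvr1, a type I receptor for BMPs, read 5.45, 5.37 and 5.51 in the lidocaine rats and 5.31, 5.59 and 5.46 in the control rats, with overlap. Acvr1 and Acvr1b, a type I receptor for activins, changed by -0.01 and 0.02, with 95% intervals of -0.20 to 0.19 and -0.14 to 0.17.

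The 3 type II receptor genes measured were not called. Bmpr2, the BMP type II receptor, read 8.27, 8.17 and 8.14 in the lidocaine rats and 8.22, 8.34 and 8.31 in the control rats (log2 change -0.09, 95% interval -0.25 to 0.06, adjusted p = 0.384). Acvr2a, a receptor of activins, read 5.06, 5.16 and 5.19 in the lidocaine rats and 5.11, 5.46 and 5.22 in the control rats. Acvr2b, a receptor of the same ligands, read 4.47, 4.57 and 4.49 in the lidocaine rats and 4.61, 4.51 and 4.47 in the control rats. The groups overlapped in all 3. Tgfbr3, betaglycan, a coreceptor that presents TGF-beta and binds inhibin, read 7.03, 6.95 and 7.45 in the lidocaine rats and 6.49, 6.92 and 6.66 in the control rats. It was not called although every lidocaine value lay above every control value (log2 change 0.45, interval 0.10 to 0.80, adjusted p = 0.0696), and it was called with dim genes left out (adjusted p = 0.0433). Tgfbr3l, a related coreceptor, changed by 0.05.

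Of 3 receptor-regulated SMAD genes measured, Smad9 fell. Smad9, which transmits BMP signals, read 5.44, 5.49 and 5.33 in the lidocaine rats and 5.95, 6.17 and 6.0 in the control rats. The gap between the groups was wider than the spread within either. The level of Smad9 was lower by 1.54-fold, a log2 change of -0.62 ± 0.08 (SE, n = 3 per group; limma, adjusted p = 0.00228), and the call held without each rat in turn (changes -0.66 to -0.55). Smad5, another BMP-regulated SMAD, read 5.57, 5.57 and 5.75 in the lidocaine rats and 5.60, 5.80 and 5.64 in the control rats, and was not called (log2 change -0.06, 95% interval -0.24 to 0.13, adjusted p = 0.689). The change of Smad9 was lower than that of Smad5 by a difference of -0.56 (exact permutation p = 0.1, the smallest possible, which decides nothing).

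Smad3, which transmits TGF-beta and activin signals, read 4.65, 4.72 and 5.08 in the lidocaine rats and 4.56, 4.49 and 4.61 in the control rats. Each lidocaine value lay above each control value by a narrow margin, and Smad3 was not called (log2 change 0.26 ± 0.11, SE, adjusted p = 0.141). Smad6, an inhibitory SMAD induced by BMP signals, read 4.02, 4.26 and 4.15 in the lidocaine rats and 4.17, 4.10 and 4.13 in the control rats. Its groups overlapped, with a log2 change of 0.01 (interval -0.17 to 0.18, adjusted p = 0.946).

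Of Bmp2k, Tgfb1i1 and Tgfbrap1, which encode no ligand, receptor or SMAD, Bmp2k rose. Bmp2k, a kinase found as a BMP2-inducible gene, read 6.94, 6.86 and 6.95 in the lidocaine rats and 6.35, 6.48 and 6.44 in the control rats, with tight groups that did not overlap. It rose 1.41-fold (log2 change 0.49 ± 0.06, SE, adjusted p = 0.00237). Tgfb1i1, a focal adhesion protein, and Tgfbrap1, a receptor-associated protein, changed by 0.24 and -0.02 and were not called. The pseudogene Bmpr1a-ps1 read 6.76, 6.45 and 6.65 in the lidocaine rats and 6.24, 5.71 and 6.56 in the control rats. It may share probes with Bmpr1a, its groups overlapped, and its 2 rows moved in opposite directions, by 0.45 and -0.32. It was called without control rat 3 (adjusted p = 0.0473).

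Lidocaine rat 3 was the highest of the lidocaine rats in 25 of the 48 members, which is 52.1%, against 27.7% over all genes. It was the highest in 6 of the 6 members that rose and the lowest in 2 of the 2 that fell. The matching counts over all called genes were not taken, so these have nothing to be set against. Members measured in the same 3 rats are not independent, and neither the share of 52.1% nor these counts were tested.

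Promoter sequences, from RefSeq on the build GRCr8, were found for 36 of the 48 members and 6 of the 8 called ones. Each window runs from 250 bases before the gene's start to 50 bases after it. It was searched on both strands for the SMAD-binding palindrome GTCTAGAC, the shorter SMAD box CAGAC, the AP-1 site TGANTCA and the GC-rich BMP response element GGCGCC. Shown are both TGF-beta ligand genes that rose, the TGF-beta receptor gene that rose and the BMP-regulated SMAD gene that fell, with letters of a match in capitals. Their windows are chr1:90324062-90324361 on the plus strand for Tgfb1, chr6:111456897-111457196 on the minus strand for Tgfb3, chr5:66449148-66449447 on the plus strand for Tgfbr1 and chr2:141106418-141106717 on the plus strand for Smad9.
Tgfb1: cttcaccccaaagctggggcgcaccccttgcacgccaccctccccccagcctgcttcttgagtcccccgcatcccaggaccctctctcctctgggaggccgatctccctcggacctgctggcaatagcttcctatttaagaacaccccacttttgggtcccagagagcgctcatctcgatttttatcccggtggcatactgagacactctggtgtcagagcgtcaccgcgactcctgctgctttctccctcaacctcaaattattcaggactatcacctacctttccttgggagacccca
Tgfb3: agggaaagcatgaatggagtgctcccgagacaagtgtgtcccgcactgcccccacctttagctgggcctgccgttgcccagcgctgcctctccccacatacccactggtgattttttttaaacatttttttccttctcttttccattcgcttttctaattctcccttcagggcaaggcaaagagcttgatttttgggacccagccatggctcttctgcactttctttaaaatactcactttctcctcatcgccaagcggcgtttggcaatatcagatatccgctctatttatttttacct
Tgfbr1: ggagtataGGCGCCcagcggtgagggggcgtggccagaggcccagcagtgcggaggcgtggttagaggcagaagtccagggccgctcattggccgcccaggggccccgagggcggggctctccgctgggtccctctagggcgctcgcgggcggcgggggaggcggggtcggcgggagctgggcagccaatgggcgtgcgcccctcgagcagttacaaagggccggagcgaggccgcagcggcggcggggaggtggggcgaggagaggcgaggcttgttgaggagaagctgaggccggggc
Smad9: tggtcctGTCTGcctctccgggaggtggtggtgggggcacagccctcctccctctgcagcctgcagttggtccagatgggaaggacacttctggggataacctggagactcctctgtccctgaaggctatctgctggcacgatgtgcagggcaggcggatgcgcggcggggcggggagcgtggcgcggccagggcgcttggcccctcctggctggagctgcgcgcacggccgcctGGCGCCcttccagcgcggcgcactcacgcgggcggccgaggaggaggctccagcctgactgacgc

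The Tgfb1 and Tgfb3 windows held none of these letter strings. Counting from the start, with bases before it negative, GGCGCC began at -242 in Tgfbr1 and at -15 in Smad9, and CAGAC, read on the other strand, at -243 in Smad9. GGCGCC occurred in 3 of the 6 called members with a window (50%), in 9 of the 36 members with one (25%) and in 11% of the 33469 promoter windows of all genes. The 3 were Tgfbr1, Smad9 and Bmp2k. The windows of all genes are not limited to the genes measured on the array. CAGAC occurred in 1 of the 6, in 12 of the 36 and in 50.1% of all windows. TGANTCA occurred in 0 of the 6, in 1 of the 36, Bmpr1a, and in 7.33% of all windows. GTCTAGAC occurred in 0 of the 36 and in 0.197% of all windows. These shares were not compared by a test, and a match is a string of letters and not a measured binding site.

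Other genes of the pathway were taken from fixed lists of 92 genes, of which 85 were measured. Of these 26 rose, 5 fell and 54 were not called. The median change was 0.07, against -0.01 over all genes, and the share called was 36.5% against 23.7%. The share called was not compared by a test, either between lists or with all genes. The lists were chosen with earlier results of these data known. In 16 of the 31 called genes both group means lay below the 95th percentile of the negative controls. Ltbp1, Nrros, Id1, Id3, Fstl3 and Rgmb, named below, are among the 16, as are Cd109, Tgif1 and Fst, so their folds are uncertain. The control mean alone lay below that percentile in 5 more (Thbs1, Fbn1, Furin, Ccn1 and Postn), the lidocaine mean alone in 2 (Zfyve9 and Id4), and neither in 8. The first list holds genes of latency and activation, with the precursor protease Furin and the coreceptor Cd109 among them. Of its 18 genes, 10 rose, 0 fell and 8 were not called, with a median change of 0.35.

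Thbs1, thrombospondin 1, which can activate latent TGF-beta, read 8.51, 8.54 and 7.57 in the lidocaine rats and 5.20, 5.29 and 5.56 in the control rats. Here lidocaine rat 3 was the lowest of the 3, and still far above every control rat. The rise of Thbs1 was 7.24-fold, a log2 change of 2.86 ± 0.25 (SE, n = 3 per group; limma, adjusted p = 0.00042). Fbn1, fibrillin 1, the microfibril protein to which latent complexes attach, rose 2.51-fold, Cd109, a TGF-beta coreceptor that dampens the signal, 1.58-fold, and Furin, the protease that cleaves the ligand precursors, 1.42-fold (adjusted p = 0.0034, 0.00361 and 0.00152). Cd109 was dim, above 64.5% of the negative controls in the lidocaine rats and 50.3% in the control rats, so its fold is uncertain. Its call was lost with the mean of its rows (adjusted p = 0.0861). Chosen after their values were seen, Ltbp1, which tethers latent TGF-beta to the matrix, rose 1.74-fold, and Nrros, which holds it on microglia, rose 1.38-fold (adjusted p = 0.0143 and 0.00527). Ltbp1 was not called with control rat 3 left out (adjusted p = 0.051).

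**Figure D3:**
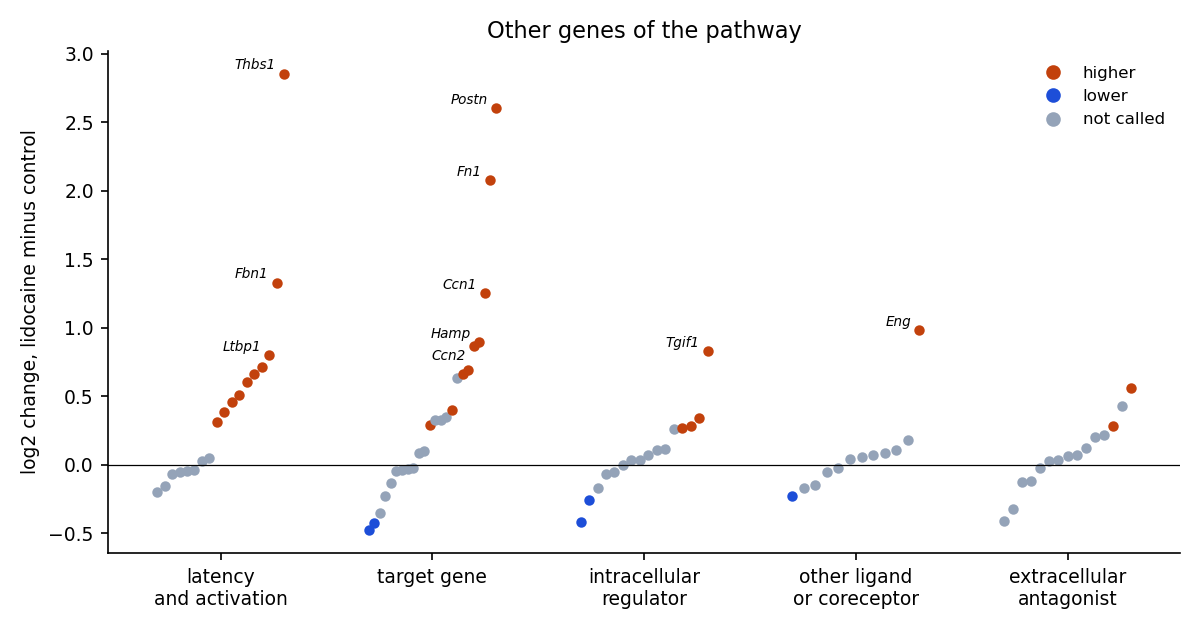
Change on the log2 scale (y axis, lidocaine mean minus control mean, 3 rats each) of 85 further genes of the pathway in 5 lists, each point a gene, ordered by its change within the list. The 10 called genes of latency and activation all lie above 0, led by Thbs1 at 2.86, and the called genes of the target list run from -0.48 for Id4 to 2.61 for Postn.

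Of 24 genes known as targets of TGF-beta or BMP signals, 9 rose, 2 fell and 13 were not called, with a median change of 0.31. The matrix proteins periostin, Postn, and fibronectin, Fn1, rose 6.09-fold and 4.23-fold (log2 changes 2.61 ± 0.23 and 2.08 ± 0.18, SE, adjusted p = 0.000424 for both), and Ccn1, a matricellular protein, 2.38-fold (adjusted p = 0.00269). Postn lay above 94.8% of the negative controls in the lidocaine rats and 69.4% in the control rats, so its control level is not clearly above background and its fold is uncertain. These genes also answer to other signals.

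The Id genes, inhibitors of differentiation that BMPs induce, did not move one way. Id4 read 5.68, 5.81 and 5.73 in the lidocaine rats and 6.32, 6.13 and 6.22 in the control rats, a level lower by 1.39-fold (limma, adjusted p = 0.00431). The other Id genes were chosen after their values were seen. Id3 read 5.24, 5.46 and 5.76 in the lidocaine rats and 4.78, 4.75 and 4.84 in the control rats and rose 1.62-fold (adjusted p = 0.00716). Id1 rose 1.22-fold, and Id2 fell to a level 1.34-fold below that of the control rats (adjusted p = 0.0282 and 0.0329). Id1 lost its call without any of 5 of the rats, all but control rat 2, at adjusted p 0.0578 to 0.0961. With the replicate number as a block its adjusted p was 0.0564. The call of Id2 was lost without any of 5 rats, all but lidocaine rat 2, at adjusted p 0.0582 to 0.0948.

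Among 16 intracellular regulators 4 rose, 2 fell and 10 were not called. Tgif1, a repressor of SMAD transcription, read 4.7, 4.68 and 4.78 in the lidocaine rats and 3.86, 3.95 and 3.86 in the control rats. Both groups were tight, and Tgif1 rose 1.78-fold, with the smallest adjusted p of the 85 genes (log2 change 0.83 ± 0.06, SE, limma, adjusted p = 0.000254). Tgif1 lay above 85.8% of the negative controls in the lidocaine rats and 76.5% in the control rats, so its fold is uncertain. Zfyve9, which brings SMADs to the TGF-beta receptor, was 1.34-fold lower (adjusted p = 0.0104). Pmepa1, a TGF-beta-induced feedback inhibitor, and Fkbp1a, which keeps type I receptors inactive, rose 1.21-fold and 1.27-fold (adjusted p = 0.0241 and 0.0245). The call of Pmepa1 was lost without any of 5 rats, all but lidocaine rat 2 (adjusted p 0.057 to 0.0696), after centring (0.055), with the mean of its rows (0.169) and with the replicate number as a block (0.0575). That of Fkbp1a was lost without any of 4 rats, all but lidocaine rat 1 and control rat 2 (adjusted p 0.0637 to 0.0929).

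Of 15 extracellular antagonists 2 rose and 13 were not called. Fstl3 and Fst, which encode follistatin-like 3 and follistatin and bind activins, rose 1.48-fold and 1.21-fold (adjusted p = 0.00886 and 0.0181). Fst was dim, above 71.4% of the negative controls in the lidocaine rats and 68.7% in the control rats, so its fold is uncertain. The call of Fst was lost without control rat 1 or 3 (adjusted p = 0.0529 and 0.0772) and with the replicate number as a block (0.0521). Of 12 other ligands and coreceptors 1 rose, 1 fell and 10 were not called. Eng, endoglin, a coreceptor of endothelial cells and macrophages, read 7.6, 7.33 and 7.49 in the lidocaine rats and 6.22, 6.70 and 6.55 in the control rats. It rose 1.98-fold (log2 change 0.99 ± 0.13, SE, adjusted p = 0.00246). Rgmb, a BMP coreceptor of neurons, was 1.17-fold lower (adjusted p = 0.0283), a call lost without any 1 of 5 rats, all but control rat 1 (adjusted p 0.0517 to 0.0979), and with the replicate number as a block (0.0824). With all array rows tested, Fst, Rgmb, Pmepa1, Fkbp1a, Id1 and Id2 were not called (adjusted p 0.0615 to 0.101).

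Markers of several cell types differed between the groups along with these genes. Of 16 phagocyte markers 15 rose, and the mean log2 level of the list was 6.98 to 7.15 in the lidocaine rats and 5.33 to 5.42 in the control rats. Of 7 measured markers of dividing cells 7 rose, with list means of 5.14 to 5.70 in the lidocaine rats, highest in rat 3, and 3.64 to 3.73 in the control rats. Of 13 markers of fibroblasts and meninges 5 rose and 3 fell. Their list means were 6.72, 6.92 and 7.27 in lidocaine rats 1, 2 and 3 and 6.75 to 7.0 in the control rats. That list shares Col1a1, Col1a2, Col3a1 and Dcn with the pathway lists.

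Of 12 neuron markers 10 fell, of 7 oligodendrocyte markers 5 fell and of 7 astrocyte markers 4 fell and 1, Gfap, rose. Their list means lay between 7.81 and 8.14, 8.38 and 8.53 and 7.71 and 7.97 in the lidocaine rats, and between 8.38 and 8.45, 8.9 and 9.0 and 8.05 and 8.17 in the control rats. Of 10 endothelial markers 1 rose, with list means of 6.10 to 6.37 in the lidocaine rats and 6.09 to 6.27 in the control rats. Summed on the linear scale and taken back to log2, the phagocyte list stood at 11.43 to 11.60 in the lidocaine rats and 9.78 to 9.88 in the control rats. The astrocyte list summed in that way overlapped, at 11.40 to 11.76 in the lidocaine rats and 11.67 to 11.76 in the control rats. No marker was at 0 on any array. The part of these shifts in the changes of the members was not tested.

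**Figure D4:**
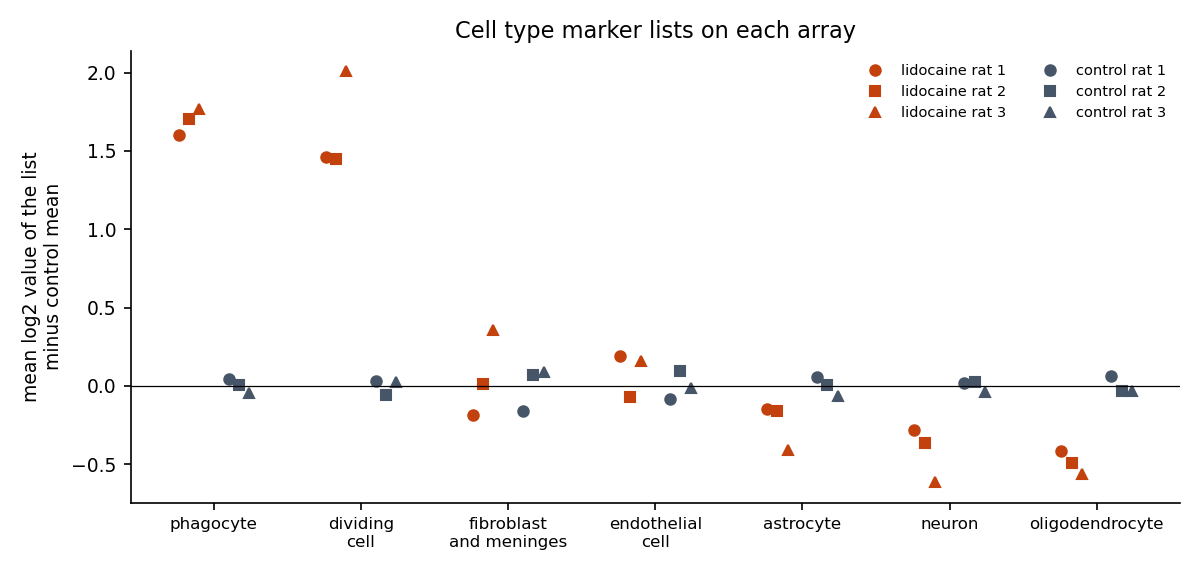
Mean log2 level of 7 lists of cell type markers on each array, as the difference from the mean of the 3 control rats (y axis). In each list the lidocaine rats stand left of the control rats. The phagocyte and dividing cell lists lie above every control rat in all 3 lidocaine rats, the neuron, oligodendrocyte and astrocyte lists below, and the fibroblast and meninges list is above them in lidocaine rat 3 alone.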

How the data were processed

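The data were 6 Affymetrix arrays of rat lumbar cord RNA, labelled from 150 ng, with groups and rat numbers from the sample titles. The authors deposited log2 values after RMA, per the submitters' processing notes. Its version and the genome build are not stated in those notes. Of 65527 rows, 63789 were transcript clusters and the rest control probes or other rows. The platform annotation named 1 gene for 21560 clusters, several for 471 and none for 41758. The brightest row of each gene over the 6 arrays was kept, leaving 20530 genes. Lidocaine was set against control by lmFit and eBayes of limma 3.58.1 (R 4.3.3), p-values were adjusted by Benjamini-Hochberg over the 20530 genes, and 0.05 was the threshold. The fit was also run on simulated data with independent noise for each gene, which is not a test of the calls made here. Precision is limited by having 6 arrays.

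The members and the gene lists were chosen with earlier results of these data known. Of the 92 further pathway genes, 7 are not analysed here. A member's values are given in full where it was called or is a TGF-beta ligand, an activin subunit, a type II receptor or an inhibitory SMAD. From each pathway list the text names up to 4 called genes with the smallest p. Other named genes, among them Bmpr1a, Bmpr1b, Acvrl1, Tgfbr3, Acvr1, Bmp4, Bmp6, Gdf10, Gdf11, Gdf15, Smad3, Smad5 and Bmpr1a-ps1, were chosen after their values were seen. Alternatives were a replicate block, median centring, leaving out dim genes, the mean of all rows of a gene, testing all rows, a trended robust variance model and leaving out each rat. The labels give no batch. Promoters came from RefSeq (GRCr8). Array coordinates were not used.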

Additional observations from a re-analysis of the deposited data

How the results depend on the processing

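Tgfb1, Bmp7, Tgfb3, Smad9 and Bmp2k kept their direction and their call without each rat in turn and under each other alternative in which they were tested. For Tgfb1 the alternative that leaves out dim genes is no separate support, since this gene passed that filter only through its lidocaine level. Without each rat in turn, the members called ranged from 5 to 11, those higher from 4 to 6 and those lower from 1 to 5. The pathway genes called ranged from 21 to 29, those higher from 18 to 26 and those lower from 2 to 4. The genes called over the array ranged from 2754 to 4335, those higher from 1299 to 1912 and those lower from 1342 to 2423, and the median change of the members from -0.0025 to 0.058. After median centring, 4 members and 10 pathway genes were lower, against 2 and 5 before it. With genes whose mean lay below 5.94 left out, 4996 genes and 10 members were tested, which by construction leaves fewer calls. Of the 4996 genes 2556 were then called, 702 higher and 1854 lower. Of the 10 members 6 were called, 5 higher and 1 lower, and the median change of the 10 was 0.44. Tgfb1, among the 5, passed the filter only through its lidocaine level. Its means were 6.68 in the lidocaine rats, 5.27 in the control rats and 5.98 over the 6 arrays. The median change of the 4996 genes was not taken, so the 0.44 has nothing to be set against. Of the pathway genes 15 were called, 10 of them higher. With all rows tested, 3056 genes were called, 1639 of them lower, and 2 pathway genes were lower. Bmp1 was then not called (adjusted p = 0.055).

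Rat numbers in the titles do not state a pairing. Deviations of same-numbered rats from their group means correlated at -0.06, -0.24 and 0.14, so the numbers were not taken to pair the rats. With the replicate block 8 members, 4005 genes and 24 pathway genes were called, 3 of the pathway genes lower.

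Uncalled changes near 0 could turn sign. After centring, the log2 change of Smad6 was -0.038 and that of Bmp6 -0.022. Without each rat in turn, Smad6 ranged from -0.049 to 0.071, Bmp6 from -0.117 to 0.141, Inhbe from -0.085 to 0.043, Acvr2b from -0.056 to 0.016 and Smad5 from -0.115 to 0.0035. Signs also turned in Acvr1, Acvr1b, Bmp2, Bmp8a, Bmp10, Gdf2, Gdf5, Gdf10 and Smad2-ps1, none of them called in any setting. The causes of these differences were not tested. Dim signal limits what can be seen, since 32 members lay between the median and the 95th percentile of the negative controls and 6 below that median.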

Other observations

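One further row names Gdf1 together with Cers1, a ceramide synthase gene, and so was used for neither. It read 5.98, 5.99 and 5.66 in the lidocaine rats and 5.98, 5.98 and 5.91 in the control rats, and its change of -0.08 was not called (limma over all rows, adjusted p = 0.724).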
